A study of Mus musculus with 4 samples.

Results

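Described here are 17 of the 50821 long non-coding RNA (lncRNA) features listed in mouse ovary, chosen by their identifier class, number of transcripts, abundance at day 3 and strong reduction after culture. Each has an identifier that starts with NONMMUG, the prefix of mouse genes in NONCODE, a database of non-coding RNA, and 47459 listed features carry that prefix. The 17 were chosen by their values: fewer than 10 transcripts, an FPKM of 3 or more in both day 3 libraries, both cultured FPKM at least 4-fold below the lower day 3 FPKM, and a count above 0 in at least 1 cultured library. FPKM is the number of fragments scaled to the length of the feature and to the library total. Of 763 NONMMUG features with fewer than 10 transcripts and that day 3 level, 18 (2.36%) met the limits, and 1 of them, NONMMUG001516.2, was left out as part of the selection. Also outside the 17 were 3 NONMMUG features with 10 or more transcripts and 17 features of the other identifier class, LXLOC, that met the same FPKM limits.

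The study compared ovaries isolated from 3-day-old mice (2 libraries) with ovaries isolated at the same age and then kept in culture for 8 days (2 libraries). The labels place the first group before and the second after the initiation of follicles, which was assessed on stained sections. Total RNA was sequenced without sorting cells, and the labels give no strain and no number of animals per library. No genetic change or added agent is stated for either group, and the effect of culture cannot be told apart from that of age.

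In the newborn mouse ovary, clusters of oocytes break up into primordial follicles, in which a resting oocyte is enclosed by flat somatic cells. Initiation is the step at which some of these oocytes grow and their somatic cells become cuboidal granulosa cells. Long non-coding RNAs are transcripts that are not known to be translated. They include RNAs that act on chromatin or on neighbouring genes, RNAs that hold proteins, and many whose function is not known. The tables pair no identifier with a gene symbol, and 0 of the identifiers occurred in the mouse gene tables at hand. No role, genome position or sequence is therefore given for any of the 17, and the tissue could not be checked against marker genes.

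The sum of estimated counts over the listed features was 26566784 and 26324839 at day 3 against 20939363 and 18215834 after culture. The library totals that the deposited FPKM imply were larger and closer to each other, at 49357745 and 49189010 against 44249891 and 41410677. Cultured library 1 stood apart, with 11211 features at FPKM 0.5 or above against 6991 to 7334 in the others, and with a TMM scaling factor (trimmed mean of M-values) of 1.45 against 0.794 to 1.03. Values are therefore also given without it. Nothing says that replicate libraries stem from different animals, so p-values reflect only how much these libraries vary, which may be technical.

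The 17 features together lost most of their signal. Their summed FPKM was 589 and 386 in the day 3 libraries and 43.6 and 72.7 in the cultured libraries. A single feature, NONMMUG039673.2, made up 65.6% of that sum at day 3 and 66.4% after culture. Without it the sums were 189.6 and 146 at day 3 and 19.1 and 19.99 after culture. The median feature kept 11.9% of its mean day 3 FPKM. The median of the 745 other features of the same class and day 3 level stood at 121%. By cultured library 1 alone these medians were 10.7% and 130.4%. With cultured library 2 alone they were 12.7% and 106.8%. Because the limits chose these falls, the values describe the 17 features and carry no test. In bulk tissue, fewer cells of a type and less RNA per cell cannot be told apart.

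**Figure D1:**
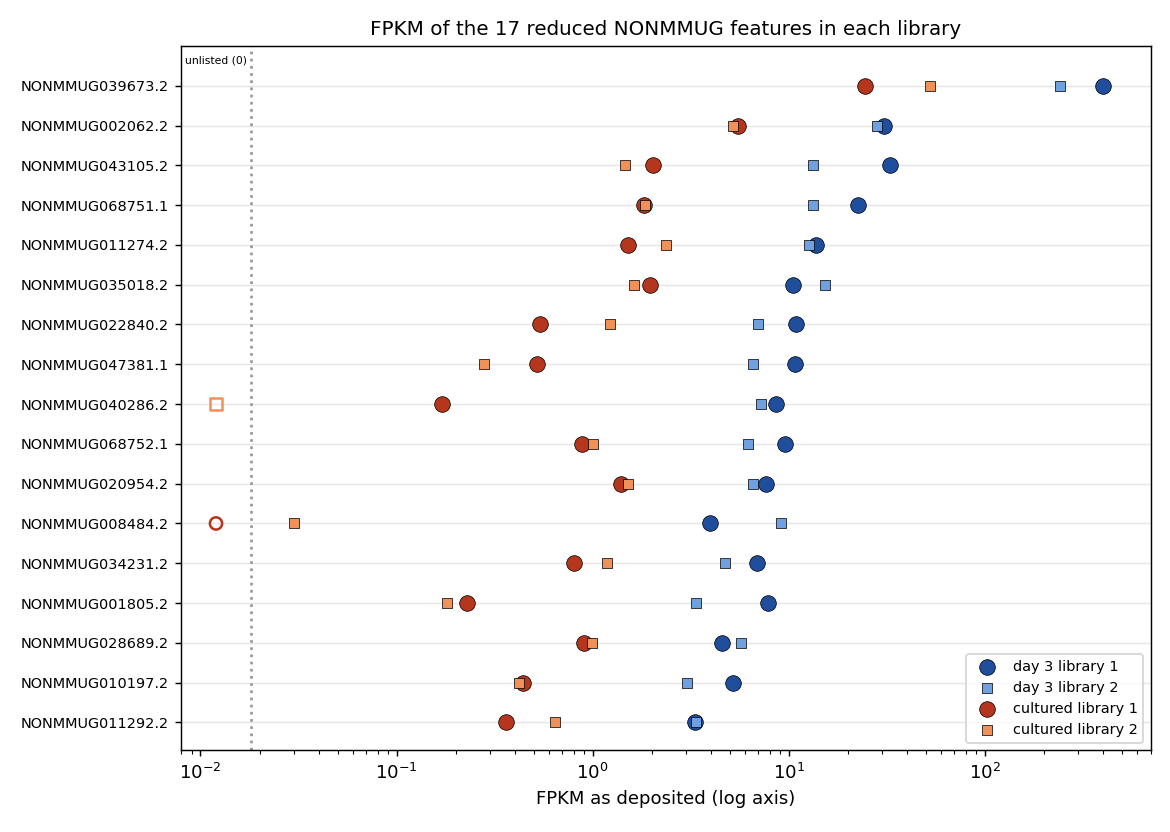
FPKM of each of the 17 features on a log axis, with 1 point per library (circles for libraries 1, squares for libraries 2, blue for day 3, red and orange for cultured ovaries) and open symbols left of the dotted line for features unlisted in a library. The selection keeps the groups apart in every row, and NONMMUG039673.2 lies far to the right of the others in all 4 libraries.

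NONMMUG039673.2 was the most abundant of the 17, with 8 transcripts and a mean length of 2285 bases. Its FPKM was 399.7 and 241 at day 3 and 24.5 and 52.7 after culture, from 43829, 26302, 2418 and 4850 counts. The mean fell from 320.2 ± 112 to 38.6 ± 19.95 (SD, n = 2 each), or 8.30-fold. Both groups were spread, with a 1.66-fold gap between the day 3 libraries and a 2.15-fold gap between the cultured libraries, and cultured library 1 was the lower one. The fitted change was -3.27 ± 0.584 on the log2 scale (SE, edgeR adjusted p = 0.00221). It was -2.66 without cultured library 1 and -4.41 without cultured library 2. By mean FPKM the feature ranked 26 of the 763 at day 3 and 118 after culture.

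A further 5 features had a mean day 3 FPKM of 10 or more. NONMMUG002062.2, with 3 transcripts and 2324 bases, measured FPKM 30.8 and 28.3 before culture and 5.54 and 5.21 after it. Its libraries lay close within each group, with gaps of 1.09-fold at day 3 and 1.06-fold after culture, against a 5.50-fold difference between the means. NONMMUG043105.2, a single transcript of 784 bases, went from FPKM 32.7 and 13.2 in the day 3 libraries to 2.02 and 1.46 in the cultured ones. Here the day 3 libraries differed 2.47-fold, the widest day 3 gap among the 17, and the means differed 13.2-fold. Its fitted log2 fold change of -4.08 was -3.22 without day 3 library 1, the higher of the day 3 libraries.

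NONMMUG068751.1, a single transcript of 1727 bases, had day 3 FPKM of 22.6 and 13.3 and cultured FPKM of 1.83 and 1.86. The cultured libraries were nearly equal and the day 3 libraries 1.70-fold apart. NONMMUG011274.2, with 2 transcripts and 353 bases, measured FPKM 13.9 and 12.6 before culture and 1.51 and 2.36 after it. NONMMUG035018.2, of 606 bases, went from FPKM 10.5 and 15.2 in the day 3 libraries to 1.97 and 1.63 in the cultured ones. It was 1 of only 4 features that were higher in day 3 library 2 than in day 3 library 1.

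Among the other 11 features, all with a mean day 3 FPKM below 10, the largest falls left almost no counts. NONMMUG008484.2, a single transcript of 824 bases, had FPKM 3.98 and 9.14 at day 3, was unlisted in cultured library 1 and had 0.03 in cultured library 2. Its rounded counts were 491 over the day 3 libraries and 1 over the cultured ones, which per library total is a ratio of 427 (95% interval 76.3 to 16890 by the exact binomial method, for counting error alone). The ratio was 260.3 without day 3 library 2, 594 without day 3 library 1 and 206 without cultured library 1. With cultured library 2 left out no count remained, and the feature was at least 73.5-fold lower, against a floor of 3 counts over the group.

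NONMMUG040286.2, with 3 transcripts and 351 bases, had FPKM 8.61 and 7.22 at day 3, 0.17 in cultured library 1 and was unlisted in cultured library 2. It held 234 counts over the day 3 libraries and 2 over the cultured ones, which per library total is a ratio of 102 (95% interval 27.8 to 845 by the same method). That ratio was 52.5 without cultured library 2, and with only cultured library 2 kept it was at least 32.8-fold lower against the same floor. These 2 features were the only ones of the 17 with 3 or fewer counts after culture, and the size of their falls is limited by depth.

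A pair of features fell over 16-fold with counts left in every library. NONMMUG001805.2, a single transcript of 2753 bases and the longest of the 17, had day 3 FPKM of 7.81 and 3.37 and cultured FPKM of 0.23 and 0.18, from 1036, 445, 27 and 20 counts. The means differed 27.3-fold, and the fitted change of -5.14 ± 0.527 on the log2 scale (SE, edgeR adjusted p = 3.39e-05) was -4.35 without day 3 library 1. NONMMUG047381.1, of 659 bases, measured FPKM 10.8 and 6.60 before culture and 0.52 and 0.28 after it, a 21.7-fold difference of means. The lowest day 3 library exceeded the highest cultured library 14.7-fold for NONMMUG001805.2 and 12.7-fold for NONMMUG047381.1.

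The smallest falls were near 5-fold. NONMMUG020954.2, a single transcript of 2448 bases, went from FPKM 7.67 and 6.54 in the day 3 libraries to 1.39 and 1.52 in the cultured ones, a 4.88-fold difference of means that was the smallest of the 17. NONMMUG028689.2, at 230 bases the shortest, had day 3 FPKM of 4.57 and 5.73 and cultured FPKM of 0.90 and 0.99, from 38.5, 47.1, 6.94 and 7.08 counts. Its fitted log2 fold change was -2.71 (SE 0.598) with an edgeR adjusted p = 0.00779, the highest of the 17, or 0.0479 without cultured library 1. NONMMUG034231.2, with 6 transcripts and 654 bases, measured FPKM 6.89 and 4.74 before culture and 0.80 and 1.18 after it.

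The remaining features fell between 6.67-fold and 10.1-fold by their means. NONMMUG022840.2, with 2 transcripts and 403 bases, went from FPKM 10.9 and 6.95 in the day 3 libraries to 0.54 and 1.23 in the cultured ones, and its cultured libraries differed 2.28-fold on 8.26 and 17.5 counts. NONMMUG010197.2, a single transcript of 872 bases, had day 3 FPKM of 5.20 and 3.02 and cultured FPKM of 0.44 and 0.42. NONMMUG011292.2, with 6 transcripts and 624 bases, measured FPKM 3.32 and 3.35 before culture and 0.36 and 0.64 after it. Its day 3 libraries agreed within 1.01-fold, the closest of the 17, while its cultured libraries differed 1.78-fold. The last, NONMMUG068752.1, is described below with its neighbours.

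By the ratio of the mean day 3 to the mean cultured FPKM, 7 features fell less than 8-fold, 6 between 8-fold and 16-fold and 4 by more. The mean cultured FPKM was below 1 for 10 features, and both cultured libraries were below 1 for 7. For 7 features at least 1 cultured library held fewer than 20 counts. Against the 763 features of this class and day 3 level, 15 of the 17 ranked beyond 700 after culture, and 1 did at day 3. The limits on the fall largely set this shift in rank. The exceptions after culture were NONMMUG039673.2 at rank 118 and NONMMUG002062.2 at rank 554.

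**Figure D2:**
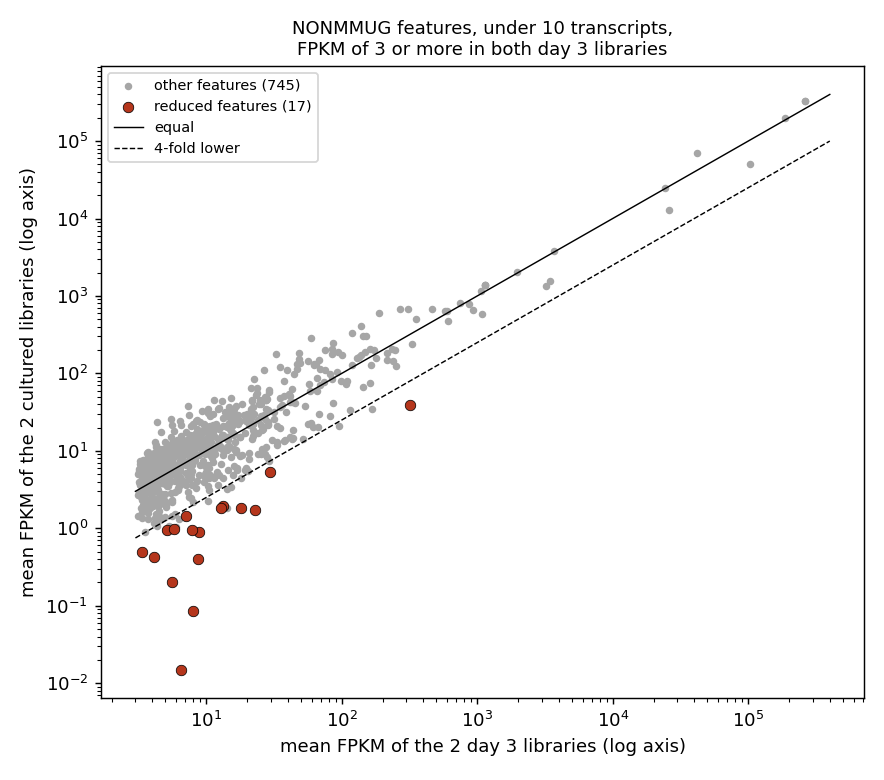
Mean FPKM of the 2 cultured libraries against mean FPKM of the 2 day 3 libraries, both on log axes, for the 17 reduced features (red) and the 745 other NONMMUG features with fewer than 10 transcripts and FPKM of 3 or more in both day 3 libraries (grey); the left out feature is not drawn. The solid line marks equal values and the dashed line a 4-fold lower value, and the 17 lie under the dashed line, where 11 of the 745 others also lie by their means.

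Features on either side of the limits had similar values. Just inside the 4-fold limit were NONMMUG034231.2, NONMMUG020954.2 and NONMMUG039673.2, whose higher cultured FPKM stood at 24.9%, 23.2% and 21.9% of the lower day 3 FPKM. Just outside were NONMMUG030375.2 at 25.3%, NONMMUG034627.2 at 26.7% and NONMMUG028682.2 at 27.2%. NONMMUG028682.2 went from FPKM 114 and 77.5 in the day 3 libraries to 21.1 and 21.1 in the cultured ones, a higher level than all but NONMMUG039673.2 among the 17. At the level limit, NONMMUG010197.2 passed with 3.02 in its lower day 3 library, NONMMUG011292.2 with 3.32 and NONMMUG001805.2 with 3.37. NONMMUG068753.1 with 2.99, NONMMUG002440.2 with 2.84 and NONMMUG001230.2 with 2.31 just missed it.

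In the fit over the 8557 features that reached FPKM 0.5 in 2 libraries or more, 8.50% were called lower and 5.87% higher after culture. A call is a Benjamini-Hochberg adjusted p below 0.05 in the quasi-likelihood test of edgeR. The lower share dropped to 4.53% when cultured library 1 was left out and to 4.14% when day 3 library 1 was. All 17 features entered the fit through their day 3 level and 17 of 17 were called lower, with edgeR adjusted p from 3.2e-05 to 0.00779. Both cultured libraries lay below both day 3 libraries in 18.8% of all tested features, and in the 17 by selection. Nothing is read from either count, since the same libraries chose the features. Among the 745 others of the same class and level, 13.4% were called lower and 3.09% higher.

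The median fitted log2 fold change was -3.38 over the 17, 0.08 over all tested features and -0.03 over the 745 others. With the FPKM totals, the library totals that the deposited FPKM imply, in place of TMM scaling, the median of all tested features was 0.37 higher, at 0.45, and that of the 17 was -3.07. On that scale 3.23% of all features and 17 of the 17 were called lower, the latter with edgeR adjusted p from 0.00166 to 0.0383. DESeq2 called 7.71% of all features and 17 of the 17 lower. Leaving out cultured library 2 changed the fitted fold of 6 features by more than 1.5 times (NONMMUG039673.2, NONMMUG011274.2, NONMMUG022840.2, NONMMUG008484.2, NONMMUG034231.2 and NONMMUG011292.2), each towards a larger fall, and placed the median of the 17 at -3.90. Leaving out cultured library 1 changed 5 by that much (NONMMUG039673.2, NONMMUG022840.2, NONMMUG040286.2, NONMMUG008484.2 and NONMMUG011292.2) and placed the median at -3.002. Of these, NONMMUG040286.2 moved towards a larger fall and the other 4 towards a smaller fall. Without day 3 library 1 the median was -3.09, and NONMMUG043105.2 and NONMMUG001805.2 moved by that much, both towards a smaller fall. Without day 3 library 2 the median was -3.68, and NONMMUG008484.2 moved by that much, also towards a smaller fall.

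**Figure D3:**
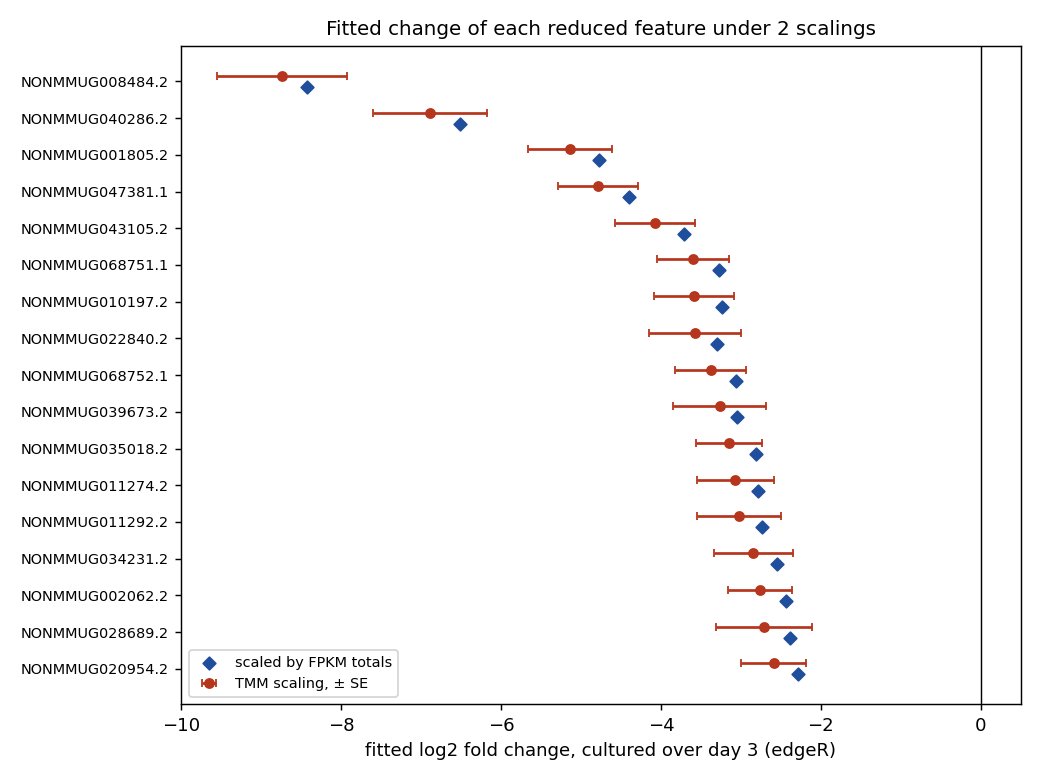
Fitted log2 fold change (cultured over day 3, edgeR) of each of the 17 features with TMM scaling (red, bars are 1 SE) and with the FPKM totals (blue diamonds). All points lie between -8.74 and -2.29, the diamonds lie to the right of the red points, and the sizes for NONMMUG008484.2 and NONMMUG040286.2 depend on the fit's handling of counts near 0.

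The gap between the day 3 libraries had a median of 1.54-fold in the 17 features and of 1.20-fold in the 745 others of their class and level. Day 3 library 1 was higher for 13 of the 17 (76.5%) and for 344 of the 745 others (46.2%). The median log2 difference of library 1 minus library 2 was 0.54 in the 17 and -0.03 in the others. These others are matched for day 3 level but not for the fall, since their median stood at 121% of day 3 after culture. The skew is therefore not shown to be particular to the 17, and it was not summarised for the 100 others called lower. Among the 11 others that were at least 4-fold lower after culture by their means, library 1 was higher for 10, with a median log2 difference of 0.61. They lie outside the 17 because their lower day 3 FPKM was less than 4-fold above their higher cultured FPKM. That choice favours features with wide gaps between libraries in either direction and does not set which library is higher. Their falls and gaps come from the same libraries as those of the 17, so their skew is no separate support. In NONMMUG001516.2, the feature left out of the 17, the log2 difference was 0.65. In either direction, the gap exceeded 1.5-fold for 9 of the 17 (52.9%) and for 133 of the 745 others (17.9%). NONMMUG043105.2, NONMMUG001805.2 and NONMMUG008484.2 had gaps of 2.47-fold, 2.32-fold and 2.30-fold, and in the last of these library 2 was the higher. Between the cultured libraries the median log2 gap was 0.35 in the 15 features listed in both and 0.34 in the others. Cultured library 1 was higher in 7 of the 17 and in 61.3% of the others. The part of day 3 library 1 in the falls was not tested, and the limits used these same values.

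**Figure D4:**
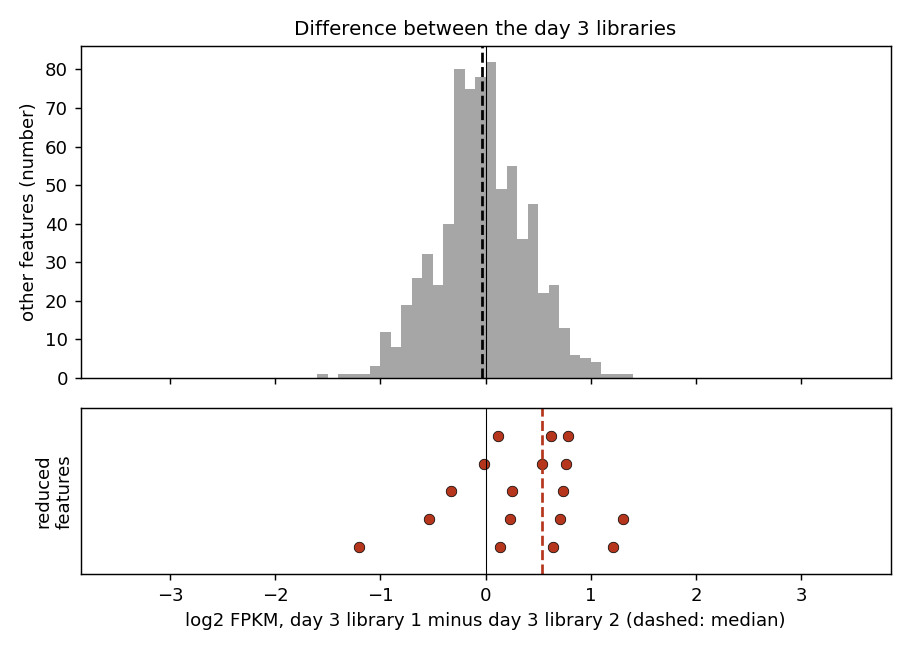
Log2 FPKM of day 3 library 1 minus day 3 library 2, as a histogram of the 745 other features (grey) and as 1 point for each of the 17 reduced features (red, heights staggered for display only), with dashed lines at the medians of -0.03 and 0.54. Of the 17 points, 13 lie right of 0.

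Feature length and structure entered the limits only through the maximum number of transcripts and the scaling of FPKM to length. A given FPKM rests on fewer counts in a short feature, so the lengths below are not free of the selection. The 17 had a median length of 784 bases (230 to 2753), and the 745 others one of 1058 bases. Under 1000 bases were 11 of the 17 (64.7%) and 47.9% of the others. A single transcript was listed for 10 of the 17 (58.8%) and for 70.1% of the others. Estimated counts were whole numbers, as printed to at most 2 decimals, in all 4 libraries for 9 of the 17 (52.9%) and for 21.1% of the others. The cultured counts enter that comparison and the limits kept them low in the 17, so it is not independent of the selection. No set of features among the 17, and no other listed feature with 1 of the 17, had the same length and counts within 10% of each other in every library. Among LXLOC features with fewer than 10 transcripts and the same day 3 level, whose prefix is not explained in the sources used here, 17 of 170 (10.0%) met the same FPKM limits. These shares are descriptions without a test.

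For the 7 features with several transcripts, the tables give a mean length weighted over transcripts in each library, and its range over the libraries passed 5% in 2 of them. NONMMUG039673.2 had mean lengths of 2286 and 2286 bases at day 3 and 2287 and 2282 after culture, a range of 0.206% on 8 transcripts. NONMMUG022840.2 had 403 bases in every library. In NONMMUG002062.2 the lengths were 2314 and 2313 bases at day 3 and 2374 and 2297 after culture, so the cultured libraries lay on either side of the day 3 pair. The range was 5.38% in NONMMUG011292.2, with 638 and 624 bases at day 3 and 630 and 605 after culture. In NONMMUG040286.2 it was 11.1%, from 359 and 365 bases at day 3 to 329 in cultured library 1, where the value rests on 2 counts.

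Some of the reduced features had identifier numbers next to each other. Grouping by number was looked at after the values were seen. Whether neighbouring numbers lie near each other in the genome was not analysed here. The search above for features with like counts covered only features of the same length. Sharing of reads between neighbours of other lengths was therefore not analysed. NONMMUG068752.1, a single transcript of 1323 bases, had day 3 FPKM of 9.55 and 6.19 and cultured FPKM of 0.88 and 1, and NONMMUG068751.1 is listed before it. The FPKM of NONMMUG068752.1 was 42.3% and 46.6% of that of NONMMUG068751.1 at day 3 and 48.1% and 53.8% after culture. NONMMUG068753.1, with 4 transcripts and 5501 bases, measured FPKM 4.43 and 2.99 before culture and 0.35 and 0.40 after it. Its FPKM was 19.6% and 22.5% of that of NONMMUG068751.1 at day 3 and 19.1% and 21.5% after culture. It fell as well (log2 fold change -3.61, SE 0.445, edgeR adjusted p = 0.000177) and missed the selection only by its day 3 level. NONMMUG068750.1, before them in number, went from FPKM 3.15 and 2.76 in the day 3 libraries to 5.42 and 3.46 in the cultured ones and missed the threshold (log2 fold change 0.22, edgeR adjusted p = 0.728).

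A second run of numbers held NONMMUG011292.2. NONMMUG011294.2, kept out by its 17 transcripts, had day 3 FPKM of 3.79 and 3.23 and cultured FPKM of 0.31 and 0.59. Its FPKM stayed between 86.1% and 114% of that of NONMMUG011292.2 in the 4 libraries. NONMMUG011295.2, with 10 transcripts, measured FPKM 1.83 and 1.62 before culture and 0.14 and 0.53 after it. Both fell, by fitted log2 fold changes of -2.71 and -2.64, with edgeR adjusted p of 0.00223 and 0.00882.

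NONMMUG028689.2, which fell, has a neighbour in number that rose. NONMMUG028686.2, with 2 transcripts and 794 bases, went from FPKM 34.8 and 61.5 in the day 3 libraries to 161 and 205 in the cultured ones, a rise with both cultured libraries above both day 3 libraries (log2 fold change 1.67, SE 0.450, edgeR adjusted p = 0.0226). NONMMUG028688.2, of 303 bases, had day 3 FPKM of 11.9 and 4.90 and cultured FPKM of 2.80 and 3.88. It missed the threshold (edgeR adjusted p = 0.0552). Unlike in the runs above, its ratio to its neighbour was not steady. The FPKM of NONMMUG028688.2 was 259.7% and 85.5% of that of NONMMUG028689.2 at day 3 and 311.1% and 391.9% after culture. NONMMUG039674.2, next to NONMMUG039673.2, measured FPKM 14.2 and 6.64 before culture and 4.12 and 4.78 after it. It fell with TMM scaling (log2 fold change -1.52, edgeR adjusted p = 0.0345) and did not pass with the FPKM totals (edgeR adjusted p = 0.107).

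Over all 17, there were 56 other NONMMUG features within 3 numbers of a reduced feature. Of these, 48 had a mean day 3 FPKM below 1, and for 11 of the 17 every neighbour did. Only 10 of the 56 were abundant enough to be tested, and 4 of them fell and 1 rose. Besides NONMMUG068750.1 and NONMMUG028688.2, those that missed the threshold were NONMMUG001802.2 (log2 fold change 0.40, edgeR adjusted p = 0.537), NONMMUG001804.2 (-1.66, edgeR adjusted p = 0.148) and NONMMUG039671.2 (-0.46, edgeR adjusted p = 0.455). With 10 features chosen by number after the values were seen, this count is a description beside the 8.50% of all features called lower.

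**Figure D5:**
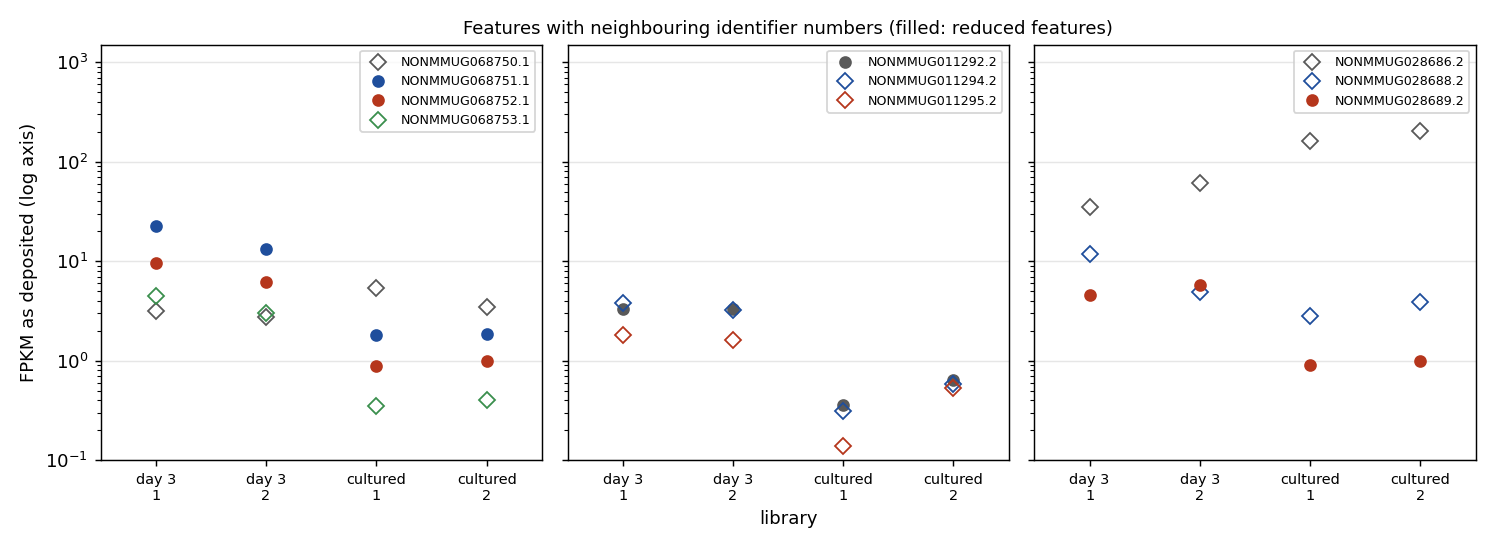
FPKM on a log axis in each of the 4 libraries for 3 runs of neighbouring identifier numbers, with filled circles for the reduced features and open diamonds for features outside the selection. In the first panel 3 of the 4 features are lower in both cultured libraries while NONMMUG068750.1 is not. In the second all 3 features drawn are lower, and in the third NONMMUG028686.2 is higher in both cultured libraries. NONMMUG011293.2 and NONMMUG028687.2, which lie inside these runs by number, had mean day 3 FPKM of 0.16 and 0.035 and are not drawn.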

How the data were processed

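Mouse ovary RNA was sequenced from strand-specific TruSeq libraries, per the labels' protocols. HISAT, Cufflinks and build mm9 are named, without versions or roles, per the submitters' processing notes, and the sources used here name no counting tool. Per the file headers, the 4 deposited tables hold the length, the expected count and the FPKM of each feature. The FPKM values are the authors' normalization to length and library total, and the smallest one listed is 0.01. Features absent from a table were set to 0.

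The limits were applied to FPKM as deposited. Expected counts were rounded and tested with edgeR 4.0.16 (R 4.3.3, TMM, quasi-likelihood F test, two-sided, no covariates) over the features that reached FPKM 0.5 in 2 libraries or more. SE is the size of the log2 fold change divided by the square root of F. Library totals behind FPKM (41410677 to 49357745) were the slopes of count over FPKM on length, from features of 1000 bases and 500 counts upwards. Alternatives were DESeq2 1.42.0, limma 3.58.1 on log2(FPKM + 0.1, 0.5 or 1), other scalings and filters, a replicate block and each library left out.

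The features and tests were chosen with earlier results of these data known. Every one of the 17 is named, together with the 3 features just outside each limit and tested neighbours in identifier number. Intervals and floors cover counting error only, since reads carry no molecular identifiers and are not independent molecules.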

Additional observations from a re-analysis of the deposited data

How the results depend on the processing

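All 17 features were called lower in each of the 14 alternatives, which reuse the libraries that chose them and are no separate support. Their median log2 fold change of -3.38 was -2.52 and -2.29 in limma with pseudocounts of 0.5 and 1, which shrink falls of low features, and -3.90 to -3.002 with each library left out. Over all features, 727 were lower and 502 higher. The lower ones numbered 276 with the library totals behind FPKM, 338, 380 and 356 in limma with pseudocounts of 0.1, 0.5 and 1, 435 (309 higher) at FPKM 1 and 1407 (1133 higher) without a filter, where other numbers of features were tested. With a library left out there were 354 to 848 lower and 232 to 412 higher (fewest without day 3 library 1), the lone library being assumed to vary like the pair. Apart from the filters, the cause was not tested. The number of features chosen, 17, was 28 with a 3-fold limit on the fall, 4 with an 8-fold limit and 11 at a day 3 FPKM of 5. The labels do not say that replicate numbers pair libraries (r of the replicate differences -0.12), and the replicate block gave 707 lower and 497 higher. Crossing the numbers, added after the data were seen, gave 571 lower and 409 higher. Depth limits the falls of NONMMUG008484.2 and NONMMUG040286.2, with 1 and 2 counts after culture.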
